A study of Mus musculus with 36 samples.

Results

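The sarcomere structure and assembly genes are a list of 53 genes for the filaments and lattices of the contractile unit of muscle and for the proteins that help to build it. Rows were taken by gene name, and a gene was tested where its count scaled to library size reached 1 RPM in 12 or more of the 36 libraries. All 53 names were found among 55416 rows, and 50 of them were among the 13995 genes tested. The list was split into 17 thin filament genes, 8 thick filament genes, 17 Z-disc and intermediate filament genes, 4 genes of titin and the M-band, and 7 genes of titin-bound signalling, folding and turnover. The 3 genes under the filter were *Tnnc2* with 0 to 10 counts per library, *Myl3* with 5 to 22 and *Myoz3* with 1 to 21.

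The libraries came from C2C12, a mouse myoblast line that fuses into myotubes when serum is withdrawn, harvested on day 4 of differentiation. A locked nucleic acid antisense oligonucleotide (LNA) against the long noncoding RNA *Tug1* (*Tug1* KD) or a negative control LNA (control) was transfected on day 3. The next day myotubes were left under unconnected electrodes (Rest), or received electrical pulse stimulation (EPS) for 3 h with harvest at its end (EPS 0h) or 3 h later (EPS 3h). Each of the 6 combinations had 6 libraries of 1 well each, and every group had received an LNA, so that no group was untransfected. Per the study the wells came from 2 experiments with 3 wells per group, all of 1 cell line, and p-values therefore measure the spread between these wells and experiments.

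In a sarcomere, thin filaments of actin, tropomyosin and the troponin complex slide past thick filaments of myosin. Thin filaments are anchored in the Z-disc by α-actinin and its partners, thick filaments are tied together in the M-band by the myomesins, and titin spans from one to the other. Several parts exist in fast, slow, embryonic or cardiac forms made from separate genes, and fusing myotubes usually express a mixture of them.

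Counts per library ranged from 17005079 to 24181167, and the 53 genes held a median of 3.97% to 4.78% of them per group. *Tug1* itself had a median of 47.7 RPM with the control LNA and 25.4 RPM with KD at Rest, 67.5 and 42.1 RPM at EPS 0h, and 76.8 and 51.4 RPM at EPS 3h. It was lower with KD in each condition (log2FC -0.83, -0.57 and -0.51, with FDR 0.00092, 0.018 and 0.041), without overlap of libraries at Rest and with overlap after EPS. All 8 myotube markers passed the filter, with a summed 3724 to 5258 RPM per library. Among them *Cacna1s*, the calcium channel of excitation-contraction coupling, rose with KD in each condition (log2FC 1.34, 1.38 and 1.29), and *Atp2a1*, the fast calcium pump, fell (-0.45, -0.46 and -0.43). The 7 markers of cycling myoblasts summed to 114 to 191 RPM per library and the 3 of reserve myoblasts to 45.6 to 96.8 RPM, and all of them passed the filter. Of 5 markers of blood, endothelium and nerve 1 passed, and their sum stayed between 0.72 and 9.47 RPM. In bulk libraries a change in the number of cells of a type and a change in RNA per cell cannot be told apart. The first principal component of the values centred on each group held 36.2% of their variance. On it replicates 1 to 3 (the first set) lay below replicates 4 to 6 (the second set) in all 6 groups, but not always by a wide gap. At Rest with KD the nearest libraries of the sets lay at -4.52 and 1.37. On that component replicate 3 of EPS 3h lay at 12.2 with the control LNA and -1.08 with KD, against -35.5 to -25.8 for replicates 1 and 2 of these groups. Replicates 4 to 6 of EPS 3h lay at 16.98 to 20.97 with the control LNA and at 8.99 to 32.3 with KD. With each LNA replicate 3 thus lay nearer to a library of the second set than to replicates 1 and 2. The labels do not name the experiment of a library, so values are also given for each set, and whether replicate 3 of EPS 3h came from the same experiment as replicates 1 and 2 is not known. Values of the first set at EPS 3h, and fits with the replicate number as a block, take it as numbered.

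The promoters of 6 of the 25 members called in any comparison are shown first. They are the 250 bases before the transcription start in RefSeq's annotation of GRCm38.p6, 5′ to 3′ on the strand of the gene. *Myom1* (chr17:71019307-71019556, plus strand), *Myom3* (chr4:135759465-135759714, plus strand) and *Myoz2* (chr3:123034988-123035237, minus strand) rose with *Tug1* KD at Rest, and *Mybpc2* (chr7:44524670-44524919, minus strand) fell. *Nrap* (chr19:56390039-56390288, minus strand) and *Xirp2* (chr2:67445752-67446001, plus strand) fell at the end of EPS in control myotubes. The calls of *Myoz2* and *Xirp2* were lost under limma-voom, an alternative test. Capitals mark a CArG box, which is bound by serum response factor, a MEF2 site, or an MCAT box (CATTCC, bound by TEAD factors), found on either strand. E-boxes (CANNTG, bound by MYOD and myogenin) are left in lower case.
Myom1: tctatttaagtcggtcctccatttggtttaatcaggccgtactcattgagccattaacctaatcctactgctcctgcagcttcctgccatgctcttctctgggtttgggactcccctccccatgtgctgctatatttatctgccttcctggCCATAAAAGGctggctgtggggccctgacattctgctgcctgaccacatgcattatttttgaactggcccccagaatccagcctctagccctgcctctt
Myom3: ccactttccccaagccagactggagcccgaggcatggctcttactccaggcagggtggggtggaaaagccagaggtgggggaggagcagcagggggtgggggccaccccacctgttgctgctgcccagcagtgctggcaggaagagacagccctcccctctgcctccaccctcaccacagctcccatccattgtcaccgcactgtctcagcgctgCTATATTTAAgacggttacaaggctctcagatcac
Myoz2: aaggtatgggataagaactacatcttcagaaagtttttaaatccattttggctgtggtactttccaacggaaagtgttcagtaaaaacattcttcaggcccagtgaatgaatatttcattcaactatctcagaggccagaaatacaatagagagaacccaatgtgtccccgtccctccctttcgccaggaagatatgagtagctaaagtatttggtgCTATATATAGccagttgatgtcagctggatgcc
Mybpc2: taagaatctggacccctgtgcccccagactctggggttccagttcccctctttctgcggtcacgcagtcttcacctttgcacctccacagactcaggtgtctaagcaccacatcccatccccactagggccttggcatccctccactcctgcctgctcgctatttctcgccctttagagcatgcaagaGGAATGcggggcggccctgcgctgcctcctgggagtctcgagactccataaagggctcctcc
Nrap: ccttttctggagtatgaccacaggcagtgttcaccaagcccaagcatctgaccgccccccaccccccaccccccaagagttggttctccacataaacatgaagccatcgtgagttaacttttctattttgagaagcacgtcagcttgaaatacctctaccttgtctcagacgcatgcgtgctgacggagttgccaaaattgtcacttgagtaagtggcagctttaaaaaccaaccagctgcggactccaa
Xirp2: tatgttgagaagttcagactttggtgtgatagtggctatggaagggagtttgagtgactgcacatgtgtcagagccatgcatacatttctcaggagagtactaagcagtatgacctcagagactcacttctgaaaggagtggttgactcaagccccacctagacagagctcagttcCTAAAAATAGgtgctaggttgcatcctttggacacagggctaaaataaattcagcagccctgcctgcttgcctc

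The *Myom1* promoter held a CArG box whose last base lay 90 bases before the start, the *Myom3* and *Myoz2* promoters held MEF2 sites that ended 26 and 24 bases before it, and the *Xirp2* promoter held one that ended 65 bases before it. The *Mybpc2* promoter held an MCAT box that ended 57 bases before the start, and the *Nrap* promoter held E-boxes and none of the marked motifs. Promoters were matched for 42 of the 53 genes, with 51 entries, and *Myom2* and *Neb* were among the genes without one. *Ankrd2*, *Csrp3*, *Klhl40*, *Lmod2*, *Pdlim5*, *Smyd1*, *Synm*, *Tnnt1* and *Unc45b* were called too, and their promoters, not printed here, held none of the marked motifs. Of the other called members with an entry not printed, *Mybph* held an MCAT box and *Ttn* a MEF2 site. A CArG box was found in 11.8% of these entries against 1.47% of 32851 mouse promoters of the same length, and a MEF2 site in 11.8% against 2.92%. The MCAT box was in 23.5% against 12.6%, the E-box in 82.4% against 66.2%, and the TATA box (TATAAA) in 15.7% against 12.4%. The 5 member genes with a CArG box were *Acta1*, *Actc1*, *Ldb3*, *Myl3* and *Myom1*, and the 6 with a MEF2 site were *Capn3*, *Klhl41*, *Myom3*, *Myoz2*, *Ttn* and *Xirp2*. A match is a description of these letters and not a bound site.

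Levels per length, as RPM per kilobase of exon (RPKM) in control myotubes at Rest, placed light chains and thin filament genes at the top of the list. *Mylpf*, the fast regulatory light chain, had a median of 2429.8 RPKM, *Tnnc1*, the slow and cardiac troponin C, 1802 RPKM, and skeletal actin *Acta1* 969 RPKM. Tropomyosin 2 (*Tpm2*) followed at 629.9 RPKM and desmin (*Des*), the muscle intermediate filament, at 572 RPKM. Titin (*Ttn*) had 1865 RPM in the median library but 15.9 RPKM over its 117522 exonic bases. Among the genes tested the lowest were *Capn3*, the titin-bound protease calpain 3, at 0.768 RPKM, and myotilin (*Myot*), an actin cross-linker of the Z-disc, at 0.837 RPKM. *Myom1* stood at rank 44 of 53 with 3.84 RPKM, below *Myom2* with 34.0 and *Myom3* with 29.5 RPKM.

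*Tug1* KD against control asks which sarcomere genes differed when *Tug1* was lowered, in resting and in stimulated myotubes. All 3 myomesin genes of the M-band rose and *Mybpc2* of the thick filament fell in all 3 conditions. At Rest 5 of 50 members rose and 2 fell by edgeR's quasi-likelihood test at FDR 0.05, where 5.54% and 4.47% of all genes tested did. At EPS 0h 7 rose and 2 fell, against 8.25% and 6.07% of all genes, and after 3 h of recovery 5 rose and 2 fell, against 6.38% and 5.11%. Counted by libraries that did not overlap, 3 members were higher and 1 lower at Rest (4.34% and 3.73% of all genes), 6 and 2 at EPS 0h (4.83% and 3.11%), and 3 and 1 at EPS 3h (2.68% and 1.94%). The median log2FC of the 50 members was 0.06, 0.08 and 0.07 in the 3 conditions, and that of all genes was -0.03, -0.00 and -0.01. Libraries of the same replicate number correlated between the LNAs at EPS 0h and EPS 3h, and pairing by number was not tested apart from the set. With the number as a block 17 members were higher and 4 lower at EPS 0h (13.1% and 11.2% of all genes). At EPS 3h 12 were higher and 4 lower with the block (10.8% and 9.75%). The block added *Actc1*, *Lmod3*, *Myoz2*, *Tnnt2* and *Ttn* among the higher at both times, *Actn2*, *Csrp3*, *Pdlim3*, *Tmod1* and *Xirp2* at EPS 0h, and *Lmod2* and *Pdlim5* at EPS 3h. Among the lower it added *Myot* at both times, *Myoz1* at EPS 0h and *Klhl41* at EPS 3h. Of the 7 markers of cycling myoblasts 0 had a positive log2FC with KD at Rest (median -0.25), and *Ccnb1*, a mitotic cyclin, fell at EPS 3h (-0.39, FDR 0.041), and the part of these cells in the results was not tested. The median of the 4 titin and M-band genes was 0.74, 0.79 and 0.74 in the 3 conditions, while the medians of the other roles lay between -0.08 and 0.15.

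*Myom1* encodes myomesin 1, a cross-linker of thick filaments in the M-band. It had 45.1, 61.7 and 74.6 RPM in the lowest, median and highest control library at Rest and 148, 161 and 169 RPM with KD. These values were 41.7, 63.3 and 81.7 RPM against 164, 189 and 208 RPM at EPS 0h, and 57.9, 68.9 and 86.0 RPM against 164, 169 and 192 RPM at EPS 3h. Every KD library lay above every control library in all 3 conditions. The log2FC was 1.40 (SE 0.136, FDR 3.4e-09) at Rest, 1.56 (SE 0.136, FDR 3.7e-10) at EPS 0h and 1.29 (SE 0.135, FDR 2.1e-08) at EPS 3h. The first set alone gave 1.21, 1.40 and 1.15, and the second set 1.62, 1.82 and 1.47.

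*Myom2*, the myomesin of fast fibres, had 494, 585 and 654 RPM in control and 949, 1054 and 1153 RPM with KD at Rest. At EPS 0h it had 436, 549.9 and 637 RPM against 992, 1026 and 1138 RPM, and at EPS 3h 529, 548 and 720.1 RPM against 859.5, 1017 and 1085 RPM. The libraries did not overlap in any condition. Its log2FC was 0.85 (SE 0.0934, FDR 4.4e-08), 0.93 (FDR 6.3e-09) and 0.78 (FDR 3e-07). *Myom3*, the third myomesin, had 140.3, 179 and 232 RPM in control and 229, 279 and 316 RPM with KD at Rest, where the ranges overlapped, and its log2FC was 0.62 (SE 0.128, FDR 0.00092). After EPS its log2FC was 0.64 and 0.61, and the groups did not overlap.

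Titin, the molecular spring from the Z-disc to the M-band, had 997, 1865 and 2368 RPM in control and 1688, 2047 and 2732 RPM with KD at Rest. Its log2FC was 0.25 at Rest (SE 0.257, FDR 0.67), 0.65 at EPS 0h (FDR 0.09) and 0.71 at EPS 3h (FDR 0.07), and none of these passed. The first set had -0.31 and the second 0.90 at Rest, with 0.58 and 0.80 at EPS 0h, then 0.68 and 0.76 at EPS 3h. With the replicate block the FDR was 0.0042 at EPS 0h and 0.0024 at EPS 3h.

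Of 7 thick filament genes tested *Mybpc2* alone passed by edgeR over all libraries with no term for the replicate number or set. *Mybpc2* encodes the fast form of myosin-binding protein C, which lies along the thick filament. It had 104.3, 114 and 115 RPM in control and 49.1, 50.5 and 53.5 RPM with KD at Rest, 105, 110.5 and 139 RPM against 49.6, 57.1 and 68.8 RPM at EPS 0h, and 93.8, 118 and 149 RPM against 53.9, 59.2 and 68.9 RPM at EPS 3h. No KD library reached the lowest control library of its condition. The log2FC was -1.13 (SE 0.0903, FDR 6.9e-11), -1.01 (FDR 5.1e-10) and -1.0005 (FDR 7.3e-10), with -1.14 and -1.12 in the sets at Rest. The slow form *Mybpc1* had means of 35.1 RPM in the first and 9.28 RPM in the second set of control at Rest, and its log2FC with KD there was -0.01 (SE 0.542). The light chains *Myl1*, *Myl2*, *Myl4* and *Mylpf* had log2FC of 0.24, 0.37, 0.29 and 0.15 at Rest, and none passed by that fit. In the first set alone *Myl1*, *Myl2* and *Myl4* were called higher at Rest, where 3.29% of all genes were, and in the second set alone none was. The replicate block called *Myl2* higher there. The median log2FC of the thick filament genes at Rest was 0.32 in the first set and -0.02 in the second.

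**Figure D1:**
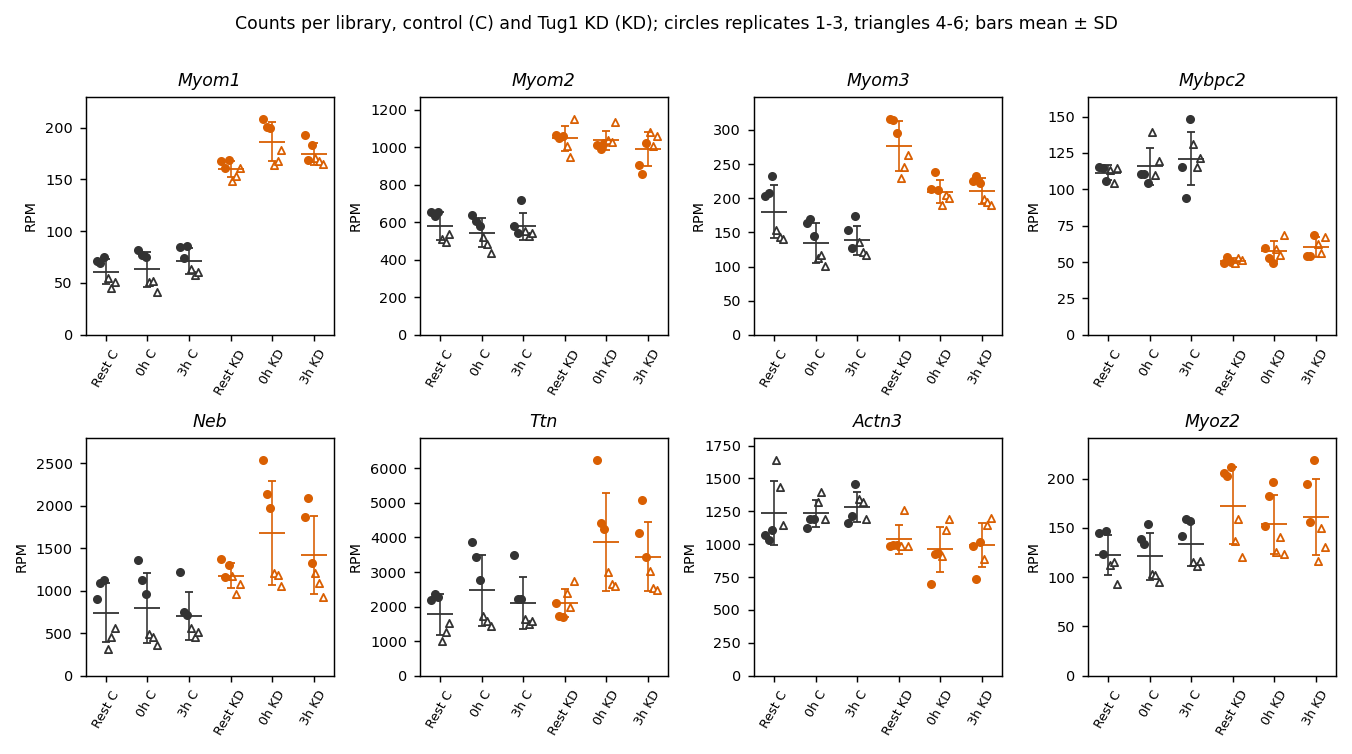
RPM in each library for 8 members in control (C, dark) and *Tug1* KD (KD, orange) at Rest, EPS 0h and EPS 3h. Circles are replicates 1 to 3, triangles replicates 4 to 6, and bars the mean ± SD of 6 libraries. The KD libraries of *Myom1* sit between 148 and 208 RPM and its control libraries at or below 86.0 RPM, while control libraries of *Neb* part by replicate set.

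Of 16 thin filament genes tested, 0 passed at Rest by edgeR with no term for the replicate number or set, 2 rose at EPS 0h and 1 rose at EPS 3h. At Rest 5 had an unadjusted p under 0.05, *Actc1*, *Neb*, *Tnnt2*, *Tnni1* and *Lmod3*. DESeq2 called 1 there, *Tnni1*, and limma-voom 0. With a term for the replicate set edgeR called *Actc1*, *Lmod2*, *Lmod3*, *Neb*, *Tmod1*, *Tnni1* and *Tnnt2* higher at Rest, where 8.75% of all genes rose. The replicate block called the same thin filament genes. *Neb* encodes nebulin, a giant protein along the thin filament, and had 316, 732 and 1130.2 RPM in control and 961, 1169 and 1370.0 RPM with KD at Rest. At EPS 0h it had 361, 727 and 1361 RPM against 1052, 1589.8 and 2541 RPM, and at EPS 3h 459, 637 and 1226 RPM against 926, 1270.4 and 2096 RPM. The ranges overlapped in each condition, and at Rest the control mean was 1040.0 RPM in the first set and 446 RPM in the second. The log2FC was 0.66 at Rest (SE 0.306, FDR 0.19), 1.08 at EPS 0h (SE 0.308, FDR 0.014) and 1.02 at EPS 3h (SE 0.307, FDR 0.025). At Rest it was 0.30 in the first set and 1.27 in the second, and both calls after EPS were lost with no filter on low counts.

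*Lmod2*, leiomodin 2, which acts on the pointed end of actin filaments, had 100.1, 141 and 224 RPM in control and 166, 257 and 348 RPM with KD at EPS 0h (log2FC 0.82, SE 0.222, FDR 0.0091). It missed the threshold at Rest (0.43, FDR 0.27) and EPS 3h (0.57, FDR 0.091, or 9.6e-06 with the replicate block). The tropomyosins, which lie in the groove of actin, were among the genes nearest to 0 at Rest, with log2FC of 0.04 for *Tpm2* (SE 0.102) and -0.05 for *Tpm3* (SE 0.0793), and *Acta1* was at 0.05 (SE 0.121). Actin genes share most of their coding sequence, so the split of counts between *Acta1* and *Actc1* is uncertain.

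Of 16 Z-disc and intermediate filament genes, 2 rose and 1 fell at Rest, 2 rose and 1 fell at EPS 0h, and 1 rose and 1 fell at EPS 3h. *Pdlim5*, a PDZ and LIM domain protein that binds α-actinin, had 151, 177 and 205 RPM in control and 209.9, 228 and 243 RPM with KD at Rest, without overlap (log2FC 0.38, SE 0.121, FDR 0.04). It rose at EPS 0h too (0.44, FDR 0.01), and at EPS 3h it was at 0.34 (FDR 0.065, or 0.0073 with the block). The call at Rest was lost under library size scaling, and those at Rest and EPS 0h in the first set alone. *Nrap*, a nebulin-related scaffold of assembling myofibrils, had 92.9, 121 and 148 RPM in control and 182, 208 and 228 RPM with KD at EPS 0h. No library overlapped there (log2FC 0.80, SE 0.165, FDR 0.00066), and the log2FC was 0.39 at Rest (FDR 0.14) and 0.49 at EPS 3h (FDR 0.045). Both calls of *Nrap* were lost in the first set alone, and the one at EPS 3h with no filter.

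*Myoz2*, a calcineurin-binding protein of the slow and cardiac Z-disc, rose at Rest from 93.2, 119 and 147 RPM to 120.4, 181 and 211 RPM, with overlap (log2FC 0.49, SE 0.16, FDR 0.043), and the call was lost under limma-voom and library size scaling. Synemin (*Synm*), an intermediate filament protein that binds desmin, fell at Rest from 8.35, 13.4 and 15.3 RPM to 7.06, 8.31 and 9.89 RPM, with overlap (log2FC -0.58, SE 0.123, FDR 0.0012), and the sets had -0.91 and -0.22, the second without passing. After EPS *Synm* was at -0.01 and -0.06. *Actn3*, the fast α-actinin, fell at EPS 0h (-0.36, FDR 0.036) and EPS 3h (-0.36, FDR 0.042), and was at -0.26 at Rest (FDR 0.2). Without replicate 3 of the EPS 3h groups, a choice made after these libraries were seen, its FDR at EPS 3h was 0.12, and both calls were lost with no filter and in the second set alone. The 7 genes of titin-bound signalling, folding and turnover held 0 that passed in any condition by edgeR, and ranged from -0.28 (*Unc45b* at Rest) to 0.16 (*Smyd1* at EPS 0h), with 0 of 21 values at an unadjusted p under 0.05, and 0 passing by DESeq2 and 0 by limma-voom. With the replicate block *Klhl41*, a kelch protein of the same kind as KLHL40, had an FDR of 0.035 at EPS 3h (log2FC -0.21 without the block).

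**Figure D2:**
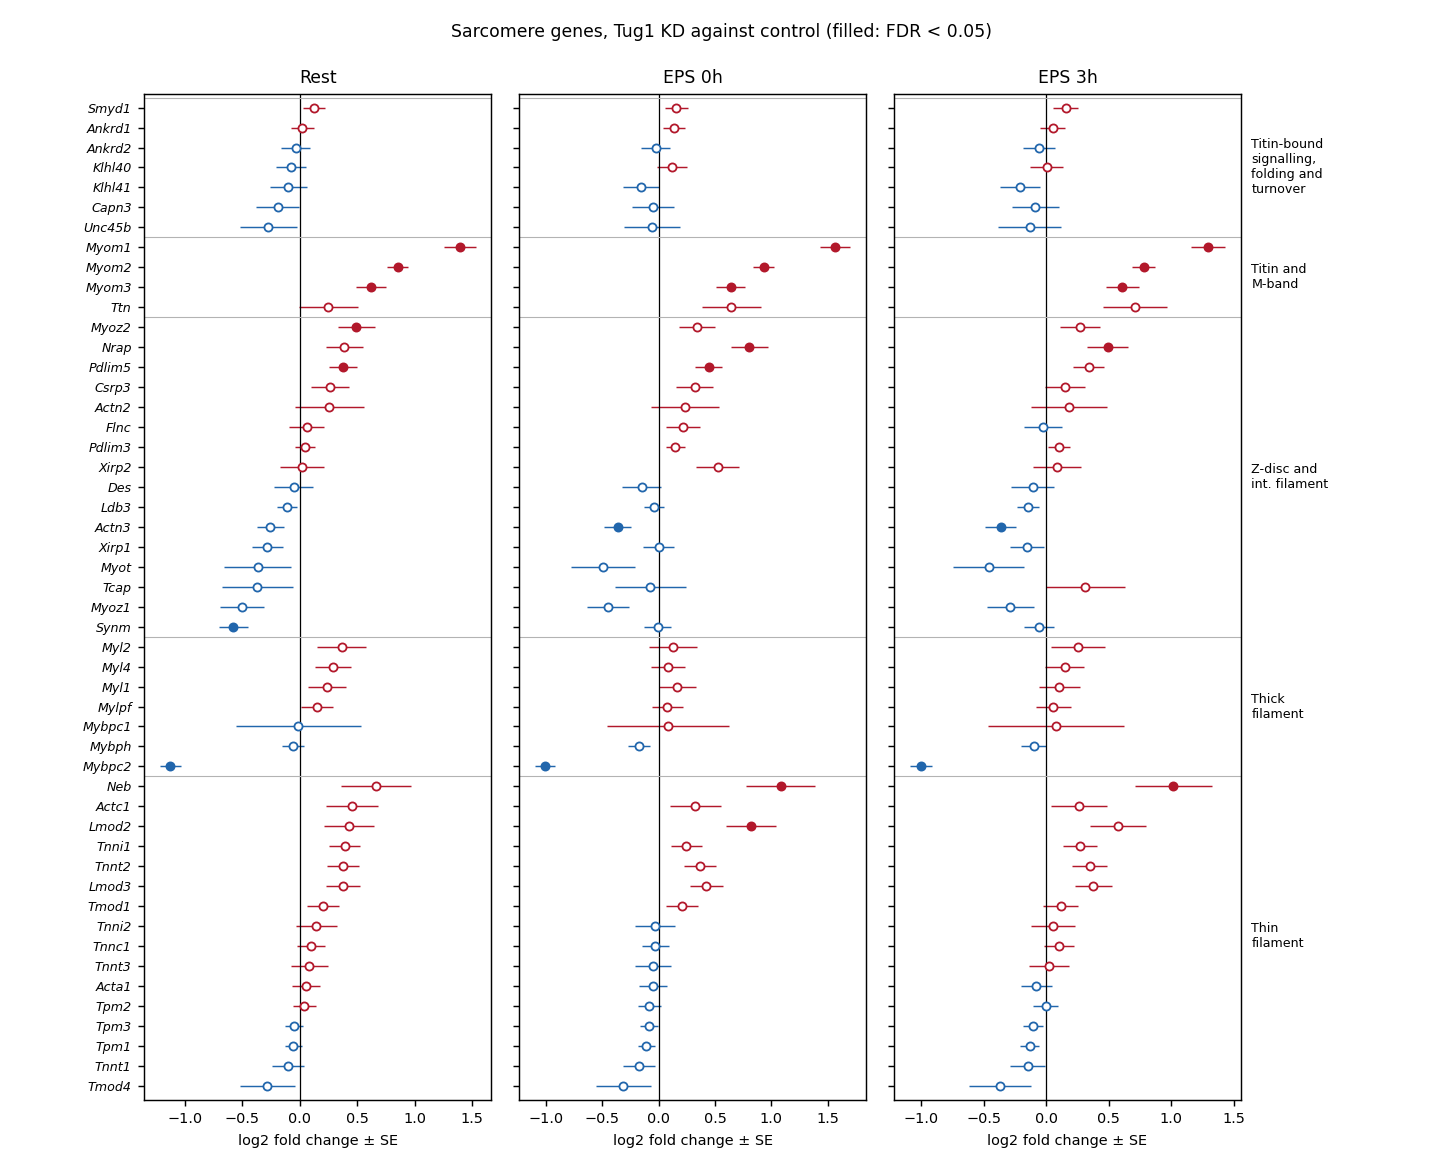
log2FC ± SE of *Tug1* KD against control for the 50 members tested at Rest, EPS 0h and EPS 3h, grouped by role, with filled points for FDR under 0.05. *Myom1*, *Myom2* and *Myom3* lie between 0.61 and 1.56 and *Mybpc2* between -1.13 and -1.0005 in all 3 panels.

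EPS against Rest in control myotubes asks how the same genes stood right after contraction and after 3 h of recovery. The series has 1 Rest group for both times. Per the study its wells held electrodes for as long as EPS lasted, and no Rest wells with a recovery are described. At EPS 3h EPS and elapsed time in culture therefore cannot be fully told apart. At EPS 0h 2 of 50 members rose and 6 fell, where 20.5% of all genes rose and 18.4% fell, and at EPS 3h 4 rose and 5 fell, where 26.1% rose and 25.9% fell. By libraries that did not overlap, 1 was higher and 1 lower at EPS 0h (11.8% and 10.1% of all genes), and 1 higher and 0 lower at EPS 3h (15.2% and 13.8%). Of the 16 Z-disc and intermediate filament genes 2 rose and 4 fell at EPS 0h, and 3 rose and 2 fell at EPS 3h. The median size of the log2FC was 0.17 for members and 0.28 for all genes at EPS 0h, then 0.14 and 0.36 at EPS 3h. Libraries of the same replicate number correlated in both comparisons. With the number as a block 6 members were higher and 9 lower at EPS 0h (24.4% and 25.5% of all genes). At EPS 3h 10 were higher and 5 lower with the block (29.6% and 31.6%). Without replicate 3 of the EPS 3h groups 2 members were higher at EPS 3h, and *Myoz1* and *Xirp1* were lost. Among the 3 reserve myoblast markers *Myf5*, a myogenic transcription factor, rose at EPS 0h without overlap (1.31 in control and 1.41 with KD), and *Myf5* and *Pax7* were lower at EPS 3h than at EPS 0h in control (-0.97 and -0.93). Of the 7 cycling markers 1 rose and 1 fell at EPS 0h, and 1 rose and 2 fell at EPS 3h, in control. The part of these cells in the results was not tested.

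*Nrap* fell the most of the members at EPS 0h. It went from 188, 249 and 306 RPM at Rest to 92.9, 121 and 148 RPM at EPS 0h, without overlap (log2FC -1.06, SE 0.166, FDR 4.3e-06), and the sets were at -1.07 and -1.04. At EPS 3h it had 128, 166 and 297 RPM (log2FC -0.44 against Rest, FDR 0.023) and was 0.61 above EPS 0h on the log2 scale (SE 0.165, FDR 0.0075). The fall at EPS 3h was lost in the first set alone.

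*Tcap*, telethonin, which caps the end of titin in the Z-disc, fell at EPS 0h from 53.5, 88.3 and 119 RPM to 28.0, 47.1 and 59.1 RPM, with overlap (log2FC -0.95, SE 0.315, FDR 0.016). At EPS 3h it had 12.6, 34.3 and 85.1 RPM (log2FC -1.07, SE 0.317, FDR 0.0047). The sets had -0.95 and -0.95 at EPS 0h, then -0.74 and -1.94 at EPS 3h, and without replicate 3 of the EPS 3h groups the value at EPS 3h was -1.44.

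*Csrp3*, muscle LIM protein, had 97.1, 124 and 149.9 RPM at Rest and 70.9, 87.9 and 109 RPM at EPS 0h (log2FC -0.49, FDR 0.016). *Xirp2*, a Xin repeat protein that binds actin, had 29.9, 59.3 and 71.0 RPM at Rest, 28.7, 38.0 and 50.8 RPM at EPS 0h and 40.2, 74.1 and 99.3 RPM at EPS 3h, with overlap. It fell at EPS 0h (log2FC -0.51, SE 0.193, FDR 0.033) and stood 0.91 higher at EPS 3h than at EPS 0h (SE 0.193, FDR 0.00084). The fall was lost under limma-voom, with no filter and in the second set alone. *Nrap* and *Xirp2* were the 2 members that rose from EPS 0h to EPS 3h, where 9.67% of all genes did, and 0 members fell by edgeR, where 6.88% did. The count that fell at an unadjusted p under 0.05 was 0 too, and DESeq2 and limma-voom called 0. No member parted the libraries of EPS 0h and EPS 3h without overlap, as 4.67% of all genes did upward and 2.62% downward.

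*Pdlim5* rose at both times, from 151, 177 and 205 RPM at Rest to 232, 281 and 340.3 RPM at EPS 0h and 279, 299.7 and 396 RPM at EPS 3h, and neither group overlapped Rest. Its log2FC was 0.70 (SE 0.122, FDR 2e-05) and 0.89 (SE 0.122, FDR 1.5e-07). *Myot* rose at EPS 0h from 5.13, 5.83 and 8.38 RPM to 6.55, 9.52 and 14.2 RPM, with overlap (log2FC 0.71, SE 0.284, FDR 0.044). This call was lost under limma-voom, library size scaling and no filter, in the second set alone and without replicate 3 of the EPS 3h groups. At EPS 3h *Myoz1*, the fast counterpart of *Myoz2*, rose by 0.49 (FDR 0.027) and *Xirp1*, the Xin protein, by 0.36 (FDR 0.026) on the log2 scale, and both calls were also lost under library size scaling, with no filter and in the second set alone.

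Among the genes of titin-bound signalling, folding and turnover, *Unc45b*, a chaperone that folds myosin heads, rose at EPS 3h from 202, 287 and 371 RPM to 275, 481 and 859 RPM, with overlap (log2FC 0.87, SE 0.25, FDR 0.0037). *Ankrd2*, a titin-bound ankyrin repeat protein, fell from 107, 153 and 181 RPM to 91.3, 99.3 and 112 RPM at EPS 0h, with overlap (log2FC -0.57, SE 0.127, FDR 0.00049), and was at -0.32 at EPS 3h (FDR 0.033). *Smyd1*, a muscle methyltransferase that acts with myosin chaperones, fell at EPS 3h (log2FC -0.26, FDR 0.029). The calls of *Ankrd2* were lost in the second set alone at both times and in the first at EPS 3h, as was that of *Smyd1* in the first. *Ankrd1*, a paralogue of *Ankrd2*, was at 0.00 at EPS 3h (SE 0.0986).

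In the titin and M-band group *Myom3* alone passed, from 140.3, 179 and 232 RPM at Rest to 100.5, 131 and 169 RPM at EPS 0h and 117, 132 and 174 RPM at EPS 3h (log2FC -0.42 and -0.38, FDR 0.0089 and 0.012). *Myom1* was at 0.05 and *Myom2* at -0.09 at EPS 0h. Of the 16 thin filament and 7 thick filament genes 0 passed at either time by edgeR with TMM scaling and no term for the replicate number or set. Of 46 values 1, *Tnnt3* at EPS 0h, had an unadjusted p under 0.05, and DESeq2 and limma-voom called 0. With the replicate block *Actc1*, cardiac actin, was higher at both times (FDR 0.028 and 0.0013) and *Lmod2* lower at EPS 0h (FDR 0.008). The set term called the same and *Tnnt2* lower at EPS 0h. In the first set alone *Actc1* rose and *Tnnt1*, *Tnnt2* and *Tnnt3* fell at EPS 0h. At EPS 3h *Actc1*, *Myl1*, *Mylpf* and *Tnni1* rose in that set and *Lmod3* fell. The second set alone called none of these roles. Library size scaling called *Mybph*, *Tnnt1*, *Tnnt2* and *Tnnt3* lower at EPS 0h, and *Mybph* at EPS 3h. The 2 thin filament genes nearest to 0 at EPS 0h were *Tpm3* (0.00, SE 0.0793) and *Tpm1* (0.01, SE 0.077), and *Mylpf* was nearest in the thick filament (-0.05, SE 0.138). *Tnnt3*, fast troponin T, was at -0.35 (FDR 0.08) and *Tnnt1*, slow troponin T, at -0.28 (FDR 0.11).

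**Figure D3:**
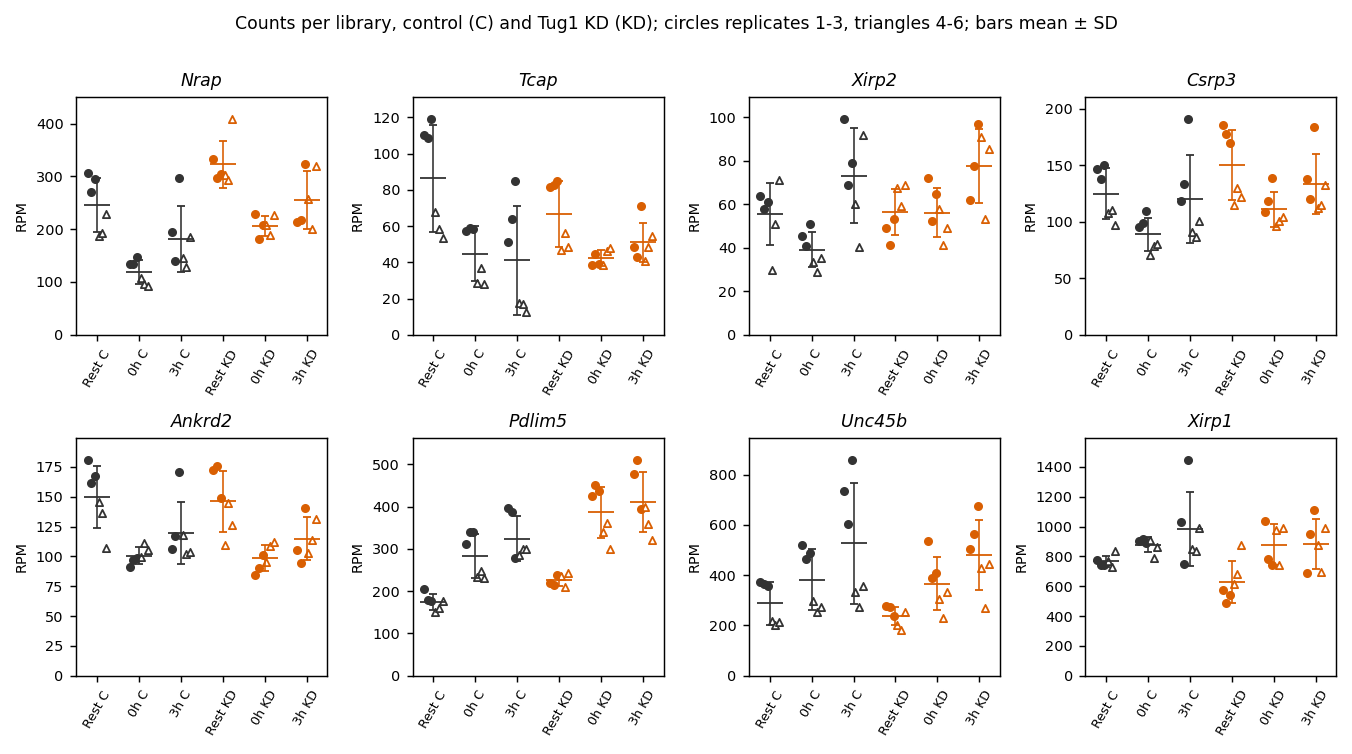
RPM in each library for 8 members that passed the test with EPS, in control (C, dark) and *Tug1* KD (KD, orange). Circles are replicates 1 to 3, triangles replicates 4 to 6, and bars the mean ± SD of 6 libraries. At EPS 0h *Nrap* lies between 92.9 and 148 RPM in control and between 182 and 228 RPM with KD.

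In *Tug1* KD myotubes 6 members rose and 7 fell at EPS 0h, where 24.4% of all genes rose and 21.2% fell, and 8 rose and 2 fell at EPS 3h, where 26.2% rose and 25.9% fell. By libraries that did not overlap, 2 were higher and 1 lower at EPS 0h (13% and 9.52% of all genes), and 3 higher and 0 lower at EPS 3h (15.9% and 14%). Libraries of the same replicate number correlated between Rest and EPS 0h. With the number as a block 11 rose and 14 fell at EPS 0h (27.9% and 29.0% of all genes). Without replicate 3 of the EPS 3h groups 6 rose and 5 fell at EPS 3h, with *Nrap*, *Smyd1* and *Tnnt3* added among those that fell and *Mybpc2* and *Xirp2* lost among those that rose.

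Titin rose at EPS 0h from 1688, 2047 and 2732 RPM to 2592, 3624 and 6249 RPM, with overlap (log2FC 0.87, SE 0.258, FDR 0.0061), and at EPS 3h had 2493, 3231 and 5079 RPM (log2FC 0.71, FDR 0.02). These log2FC were 1.45 and 1.22 in the first set alone and 0.21 and 0.17 in the second, where neither passed, and the call at EPS 3h was also lost under library size scaling and with no filter. *Synm* rose at both times, from 7.06, 8.31 and 9.89 RPM to 12.5, 15.0 and 17.3 RPM at EPS 0h and 10.9, 12.9 and 16.1 RPM at EPS 3h, without overlap (log2FC 0.81 and 0.63, FDR 1.6e-06 and 5.1e-05). In control *Synm* had log2FC of 0.24 and 0.11 without passing.

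*Pdlim5* rose by 0.77 and 0.85 on the log2 scale in the KD myotubes, *Unc45b* by 0.63 and 1.02, and *Xirp1* by 0.48 and 0.49. *Klhl40*, which stabilizes nebulin and leiomodin 3, rose at EPS 0h (0.35, FDR 0.028). *Myoz1* (0.70), *Xirp2* (0.46) and *Mybpc2* (0.25) rose at EPS 3h. Library size scaling and no filter each ended the calls of *Unc45b* and *Klhl40* at EPS 0h and of *Xirp2* and *Mybpc2* at EPS 3h, and limma-voom those of *Unc45b* and *Xirp2*. In the second set alone *Unc45b* at EPS 0h, *Xirp2* at EPS 3h and *Xirp1* and *Ankrd2* at both times were lost, and in the first *Mybpc2*. *Nrap* (-0.64, FDR 0.0017), *Ankrd2* (-0.57, FDR 0.00045), *Csrp3* (-0.43, FDR 0.028) and *Myom3* (-0.40, FDR 0.01) fell at EPS 0h. *Ankrd2* (-0.35) and *Myom3* (-0.40) were the 2 that fell at EPS 3h.

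The thin filament had 2 calls in the KD myotubes, both at EPS 0h. *Tnnt3* went from 1292, 2029 and 2608 RPM to 1296, 1354 and 1563 RPM (log2FC -0.48, SE 0.158, FDR 0.013), and *Tnnt1* from 549, 772 and 897 RPM to 500.2, 559.8 and 699 RPM (log2FC -0.35, SE 0.14, FDR 0.039), both with overlap. The first set had -0.87 and -0.72 and the second 0.010 and 0.054, so that neither fall was present in replicates 4 to 6. In the thick filament *Mybph*, myosin-binding protein H, fell (-0.29, FDR 0.016), with -0.52 and -0.06 in the sets, the second without passing.

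Whether EPS acted differently under *Tug1* KD was tested by the interaction term. 0 of 50 members passed by edgeR at either time, against 0% of all genes in both directions at EPS 0h, and 0.00715% higher and 0% lower at EPS 3h. DESeq2 and limma-voom called 0 members as well. At an unadjusted p under 0.05 edgeR had 1 member at each time, *Synm* in both cases, with a difference of log2FC of 0.57 (SE 0.172, FDR 1.00) at EPS 0h and 0.52 (SE 0.172, FDR 0.92) at EPS 3h.

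*Tcap* was the 1 member that an interaction called in any of the settings tried. In the second set its control libraries at EPS 3h had 17.7, 16.8 and 12.6 RPM and its KD libraries 40.5, 48.4 and 54.5 RPM, and in this set alone the difference of the EPS effects was 1.86 (FDR 0.00038). The first set had 51.0, 63.7 and 85.1 RPM in control and 48.6, 42.8 and 71.0 RPM with KD, with a difference of 0.14. Over all libraries the value was 0.68 (SE 0.444, FDR 1.00).

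**Figure D4:**
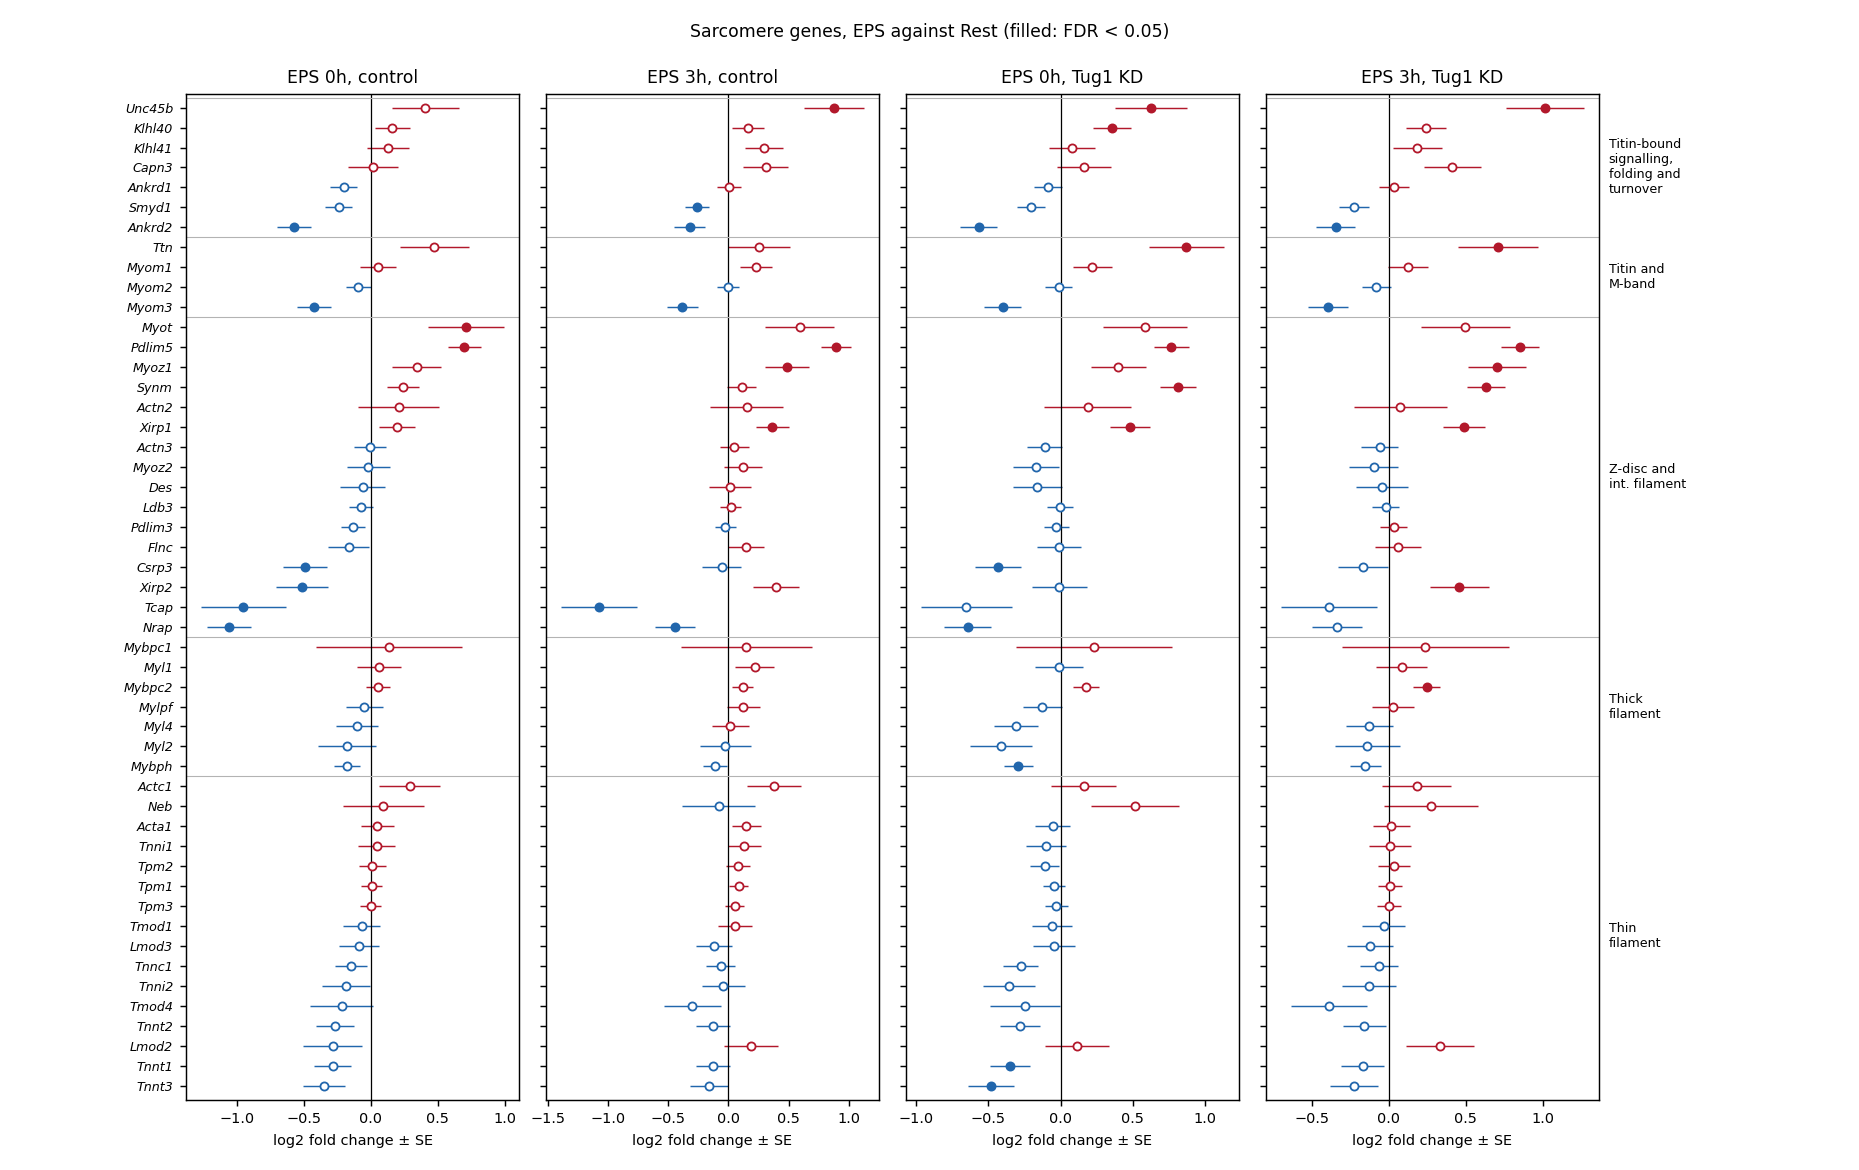
log2FC ± SE of EPS 0h and EPS 3h against Rest for the 50 members tested, in control and *Tug1* KD myotubes, grouped by role, with filled points for FDR under 0.05. No thin or thick filament gene is filled in the 2 control panels, and *Pdlim5* is filled in all 4 with values from 0.70 to 0.89.

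Fast and slow forms were compared within each library as log2 of the slow over the fast gene per length, as a description. *Myl2* over *Mylpf* had means of -7.94 to -7.60 over the 6 groups, so that the fast regulatory light chain stood far above the slow one. *Tnnt1* over *Tnnt3* had means of -0.44 to -0.21, and *Tnni1* over *Tnni2* of 0.16 to 0.65. These ratios depend on the length used, the union of exons, with 2383 and 4516 bases for *Tnnt1* and *Tnnt3* and 3600 and 1660 for *Tnni1* and *Tnni2*. Without a length the medians of control at Rest were 827 and 1905 RPM, and 1472 and 650 RPM. *Myoz2* over *Myoz1* was 3.78 ± 0.224 (SD, n = 6) in control and 4.74 ± 0.213 with KD at Rest, with no overlap there or at EPS 0h (3.39 and 4.17), and with overlap at EPS 3h (3.44 and 3.98). *Mybpc1* over *Mybpc2* was -3.04 ± 1.06 in control and -1.90 ± 1.01 with KD at Rest, with overlap.

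No troponin gene passed with *Tug1* KD in any condition by edgeR over all libraries with no term for the replicate number or set. *Tnnt2*, the cardiac and embryonic troponin T, had 1131, 1218 and 1357 RPM in control and 1433, 1623 and 1665 RPM with KD at EPS 0h, without overlap. Its log2FC was 0.38 at Rest, 0.37 at EPS 0h (FDR 0.078, or 0.0079 with the block) and 0.35 at EPS 3h (FDR 0.11, or 0.012 with the block). It passed in each condition with the term for the replicate set and in the second set alone. *Tnni1*, slow troponin I, had log2FC of 0.39, 0.25 and 0.27 in the 3 conditions and *Tnni2*, its fast counterpart, 0.14, -0.03 and 0.06. *Tnnc1* was at 0.10, -0.03 and 0.10, while its fast partner *Tnnc2* was under the filter. The slow or ventricular light chain *Myl3* was under the filter too, beside *Myl1* with a median of 1529.9 RPM at Rest. The embryonic or cardiac forms *Actc1* and *Myl4* had log2FC with KD of 0.46 and 0.29 at Rest, and neither passed without a term for the replicate number or set. With the replicate block, and with the set term, *Actc1* was higher with KD in each condition. Both genes were called higher at Rest in the first set alone, and neither in the second.

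**Figure D5:**
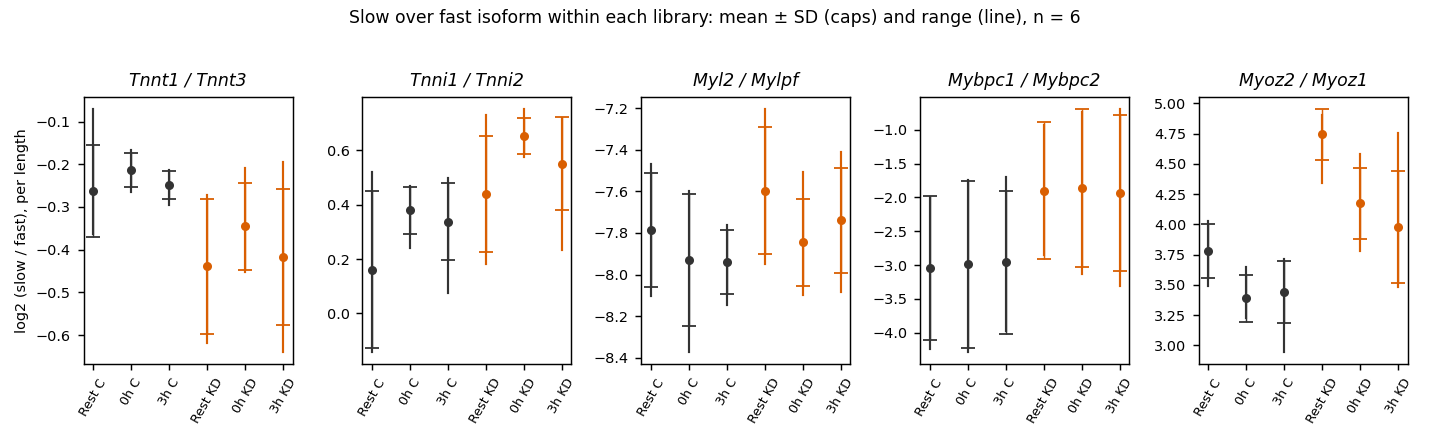
log2 of the slow over the fast gene per exon length for 5 pairs in control (C, dark) and *Tug1* KD (KD, orange), with the mean, caps for ± SD and a line for the range of 6 libraries. Each panel has its own scale. *Myoz2* over *Myoz1* has means of 3.78 in control against 4.74 with KD at Rest.

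On a list of other sarcomere genes, of which 22 were tested, 4 rose and 3 fell with *Tug1* KD in each of the 3 conditions, where 5.54% to 8.25% of all genes rose and 4.47% to 6.07% fell. *Trim55*, a ubiquitin ligase of the sarcomere, went from a median of 82.1 to 157 RPM at Rest (log2FC 0.91, 0.96 and 0.86 in the 3 conditions). *Hspb7*, a small heat shock protein that binds filamin, fell from a median of 181 to 98.1 RPM at Rest (-0.94, -0.82 and -0.75), and *Mylk2*, the kinase of the regulatory light chain, was at log2FC -0.63, -0.73 and -0.64.

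With EPS in control 3 genes of that list rose and 8 fell at EPS 0h, where 20.5% of all genes rose and 18.4% fell. At EPS 3h 8 rose and 9 fell, against 26.1% and 25.9% of all genes. *Bag3*, a cochaperone in the turnover of filamin, had medians of 514 RPM at Rest, 1229 RPM at EPS 0h and 1927 RPM at EPS 3h (log2FC 1.22 and 1.90). *Hsp90aa1*, the inducible HSP90 that acts with UNC45B, had log2FC of 1.198 and 1.97, *Hspb1* 0.74 and 1.55, and *Cryab* 1.16 at EPS 3h. *Trim54*, which encodes a ubiquitin ligase of the same family as *Trim55*, was at -0.81 and -0.71.

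The members differ in genomic span from 1143 bases for *Tcap* to 352785 bases for *Xirp2* in GRCm39. Over 50 members Spearman's rho of the log2FC with *Tug1* KD and the span was 0.30 at Rest, 0.47 at EPS 0h and 0.35 at EPS 3h, as a description across genes that share libraries. With the length of the exons it was 0.15, 0.34 and 0.18. For EPS 0h and EPS 3h against Rest rho with the span was 0.20 and 0.18 in control and 0.36 and 0.24 in KD, and with exon length 0.41 and 0.36 in control and 0.57 and 0.43 in KD. The 13 members of 50 kb or more had a median log2FC of 0.26, 0.52 and 0.34, and the 37 shorter ones 0.02, -0.03 and -0.00. *Neb* (241828 bases), *Pdlim5* (156486), *Myom1* (125175), *Myom2* (76270), *Nrap* (70178) and *Myom3* (55859) are long genes that rose with KD in some or all conditions. *Lmod2* (8069) and *Myoz2* (31055) rose too and are shorter. *Ttn* (278756) is long as well, so that all 4 titin and M-band genes are of 50 kb or more. The parts of role and span were not tested. *Smyd1*, *Mybpc1*, *Tmod1*, *Actn2* and *Ldb3* are of 50 kb or more too. By edgeR with no term for the replicate number or set they passed with KD in no condition. Their log2FC ran from -0.04 (*Ldb3*) to 0.24 (*Actn2*) at EPS 0h. With the replicate block, and with the set term, *Tmod1* was higher with KD at Rest and EPS 0h and *Actn2* at EPS 0h. *Xirp2*, the longest member, missed the threshold without such a term. It was higher at EPS 0h under DESeq2, the block and the set term. *Mybpc2* spans 23361 bases. Exons of 31 of the 53 genes overlap a gene on the other strand in GENCODE vM39, *Myom1*, *Myom2*, *Mybpc2*, *Neb*, *Nrap*, *Tcap* and *Synm* among them. The libraries were stranded, and the strand setting of the counting is not given in the sources used here, so the share of antisense reads in these counts was not tested.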

How the data were processed

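Poly-A RNA of 36 libraries of C2C12 myotubes was sequenced. The authors trimmed the reads with fastp (0.14.1 per the submitters' processing notes), checked them with FastQC (0.11.7), aligned them to GRCm39 with STAR (2.5) and counted them per gene. The deposited values are raw counts with no normalization, and the counts of the 36 single-library tables were identical to those of the series table. Groups and replicate numbers were read from the titles, and no library was left out of the main analysis. The members and lists were chosen with earlier results of these data known.

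In R 4.3.3 counts were scaled by TMM, a gene entered the fit with 1 RPM or more in 12 or more libraries, and edgeR 4.0.16 (quasi-likelihood, robust) was fitted to 6 group means. FDR is the Benjamini-Hochberg value over all 13995 genes tested, with a threshold of 0.05, and the SE is the size of the log2FC over the square root of F. The study used limma-voom, which was run here as an alternative (limma 3.58.1), as were DESeq2 1.42.0, library size scaling, no filter, the replicate number as a block, a term for the replicate set, and each set alone. The model was also run on simulated data, with the outcome not reported here. Those data held no difference between the replicate sets, so they cannot show how the fits handle one. RPM values are TMM-scaled. Per-length values used the union of exons of GENCODE vM39. Depth was 17005079 to 24181167 counts per library.

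Members were named by role: up to 5 past the threshold with the largest change and up to 2 nearest to 0, both genes of each fast and slow pair, and up to 5 genes of a list of other sarcomere genes, of which some are not reported here. Other genes named with values were chosen after those were seen. The replicate numbers were held to pair 2 groups where the correlation of deviations over genes exceeded 0.1 for every number (lowest r 0.555 for the LNAs at EPS 0h, 0.205 at EPS 3h, 0.219 and 0.117 for Rest with EPS 0h and EPS 3h in control, and 0.15 for Rest with EPS 0h in *Tug1* KD), which is a hint from the data, since the labels do not say what a number shares. Libraries of different numbers in the same set were not compared, so pairing by number was not tested apart from the set. No 2 libraries of a group were close enough to be 1 library deposited again (lowest chi-square over its degrees of freedom 4.32).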

Additional observations from a re-analysis of the deposited data

Results flagged for a closer look

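In 17 of 300 groups of 6 libraries (50 members in 6 groups), or 5.67%, the highest or lowest library stood apart from the rest by Dixon's criterion, and chance alone flags about 1 group in 20. Values are given as RPM of that library against its nearest neighbour.

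Of the 17, 5 were replicate 3 of EPS 3h in control, each the highest: *Tnnt1* (1026 against 710 RPM), *Tnnt3* (2276 against 1587 RPM), *Myom2* (720 against 580 RPM), *Ankrd2* (171 against 118 RPM) and *Klhl40* (296 against 194 RPM). Replicate 3 of EPS 3h in *Tug1* KD was highest for *Tnnt2* (2175 against 1741 RPM), *Tnnt3* (2390 against 1686 RPM) and *Csrp3* (184 against 138 RPM). In the same 2 libraries the 53 genes held 4.85% and 4.98% of counts, the highest share of their groups. *Ttn* was highest in replicate 1 of EPS 3h in control (3486 against 2222 RPM).

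At Rest, replicate 5 of *Tug1* KD was highest for *Actn3* (1263 against 996 RPM) and *Des* (3906 against 3239 RPM), replicate 6 for *Flnc* (2311 against 1721 RPM) and *Nrap* (409 against 332 RPM), and replicate 2 for *Capn3* (6.91 against 5.27 RPM), and replicate 6 of control was lowest for *Myl1* (1079 against 1481 RPM). At EPS 0h, replicate 3 of control was highest for *Ankrd1* (1163 against 1013 RPM) and replicate 6 of *Tug1* KD for *Myom2* (1138 against 1038 RPM).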

How the results depend on the processing

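Each of 500 values (50 members in 10 comparisons), of which 65 passed the threshold, was recomputed under 8 alternatives. Under DESeq2 493 kept their side of the threshold and 7 newly passed, and under limma-voom 493 did, with 2 newly past and 5 lost. Library size scaling lost 10 and added 21, and it moved the median log2FC of all genes by -0.17 at EPS 3h in both LNAs. No filter lost 14 and added 5. The replicate block added 69 and lost 0, and the term for the replicate set added 62 and lost 0. Replicates 1 to 3 alone lost 8 and added 55, while replicates 4 to 6 alone lost 18 and added 38. A change of sign was counted where the value passed in either analysis, not where it passed in neither (*Ttn* with KD at Rest, for example), and 4 cases were found: in replicates 4 to 6 alone, *Tnnt1* (0.054) and *Tnnt3* (0.0098) at EPS 0h in *Tug1* KD and *Tcap* with *Tug1* KD at EPS 0h (0.51), and in replicates 1 to 3 alone, *Xirp2* at EPS 0h in *Tug1* KD (0.41). The causes were not tested.

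The shares of all genes called moved with the settings as well. With *Tug1* KD at Rest the replicate block called 9.10% of all genes higher and 8.12% lower, against 5.54% and 4.47% in the main fit. Counts of members called that moved by more than 1.5 times are as follows. For EPS 0h in control (2 higher, 6 lower), 1 was higher under limma-voom, library size scaling and no filter, 6 under the replicate block and the replicate set term, and 7 in replicates 1 to 3, while 12 were lower under library size scaling and 10 in replicates 1 to 3. For EPS 3h in control (4 higher, 5 lower), 2 were higher under library size scaling, under no filter and without replicate 3 of the EPS 3h groups (chosen after seeing the data), 10 under the replicate block, 9 with the set term and 12 in replicates 1 to 3, where 3 were lower. For EPS 3h against EPS 0h in control (2 higher, 0 lower), 5 were higher under the replicate block and the set term and 6 in either set alone, and 1 was lower in replicates 4 to 6.

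For EPS 0h in *Tug1* KD (6 higher, 7 lower), 11 were higher under the replicate block and the set term and 12 in replicates 1 to 3, and 14 were lower under library size scaling and under the replicate block, 13 with the set term, 15 in replicates 1 to 3 and 3 in replicates 4 to 6. For EPS 3h in *Tug1* KD (8 higher, 2 lower), 5 were higher under library size scaling and no filter and 14 under the replicate block and the set term, and 9 were lower under library size scaling, 5 under no filter and without replicate 3 of the EPS 3h groups, 4 under the replicate block and the set term, and 6 in replicates 1 to 3.

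For *Tug1* KD at Rest (5 higher, 2 lower), 3 were higher under library size scaling, 15 under the replicate block, 12 with the set term and in replicates 4 to 6, and 11 in replicates 1 to 3, while 4 were lower under the replicate block. At EPS 0h (7 higher, 2 lower), 17 were higher under the replicate block and 16 with the set term and in replicates 4 to 6, and 4 were lower under the replicate block and the set term and 1 under no filter. At EPS 3h (5 higher, 2 lower), 3 were higher under no filter, 12 under the replicate block and the set term and 10 in replicates 4 to 6, and 4 were lower under the replicate block and the set term, 1 under no filter and 1 without replicate 3 of the EPS 3h groups, where *Actn3* was lost. For the interaction at EPS 3h (0), replicates 4 to 6 alone called 1, *Tcap*. The replicate numbers missed the correlation criterion for the LNAs at Rest, Rest with EPS 3h in *Tug1* KD, and EPS 0h with EPS 3h in control. The lowest correlations there were -0.07, 0.07 and -0.02.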
